A study of Bos taurus with 34 samples.

Results

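The urea cycle genes described here are the 6 enzymes CPS1, OTC, ASS1, ASL, ARG1 and NAGS and the mitochondrial carriers SLC25A15 and SLC25A13. They were taken by gene symbol from the authors' deposited comparison of slick with free cattle, and all 8 were found among its 14161 genes. Each Ensembl identifier was then found among the 27607 gene models of both raw count tables. In the series, liver RNA was sequenced from cattle labelled as Senepol with 0, 1 or 2 copies of the SLICK allele of PRLR, the prolactin receptor gene. The SLICK group held 10 daughters with 1 copy, 5 sired by the bull Blanco and 5 by Lone Ranger, and the FREE group held 8 daughters with 0 copies, 1 sired by Blanco and 7 by Lone Ranger. Both groups were prepared with a TruSeq mRNA kit and both consist of daughters of slick bulls. A separate experiment with a SMARTer total RNA kit held 11 animals with 2 copies (S2) and 5 with 1 copy (S1). Sire is not given for the S2 and S1 animals.

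The urea cycle turns the ammonia freed by amino acid breakdown into urea, and in mammals the whole cycle runs mainly in hepatocytes around the portal vein. It starts inside the mitochondrion, where CPS1 joins ammonia to bicarbonate and OTC passes the product to ornithine, and it ends in the cytosol with ASS1, ASL and ARG1. In cattle the liver also takes up ammonia absorbed from the rumen, and part of the urea returns to the gut in saliva and across the gut wall. NAGS makes N-acetylglutamate, the activator that CPS1 needs, while SLC25A15 exchanges ornithine for citrulline and SLC25A13 exports the aspartate that ASS1 uses.

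No member passed the adjusted p of 0.05 between SLICK and FREE liver. This count was 0 of 8, in a comparison where 0.501% of all genes passed in either direction. By the authors' deposited table, log2 fold changes were positive in 7 of the 8 and negative in ARG1, where positive is read from the table's name as higher in SLICK. ASS1 had the largest log2 fold change of the 8, 0.60, and CPS1 the next, 0.49 by the authors' deposited table. An unadjusted p under 0.05 was held by 6 members, all higher in SLICK, against 7.22% of all genes and 15.8% of genes averaging 5 log2 CPM or more, a bound under all 8 members. Because the genes were chosen with earlier results known, that share is given as a description only.

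The tables name single libraries by animal numbers, which occur in no sample label, so values per animal, depth per library and the S2 against S1 comparison are not analysed here. Each value below is the authors' own or derived from it, and no library values were used to check the direction. The table of the comparison names 18 animals, of whom 17 also appear among the 18 of the TruSeq counts, so it is also unknown whether the compared animals are exactly those of the labels. A standard error (SE) was derived as the size of the log2 fold change over the square root of the deposited F, and each 95% interval follows from it. Since 7 of the 8 FREE animals but 5 of the 10 SLICK animals are daughters of Lone Ranger, genotype and sire cannot be fully told apart, and a sire term in the authors' model is not stated. In bulk liver, fewer cells of a type and less RNA per cell cannot be told apart.

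**Figure D1:**
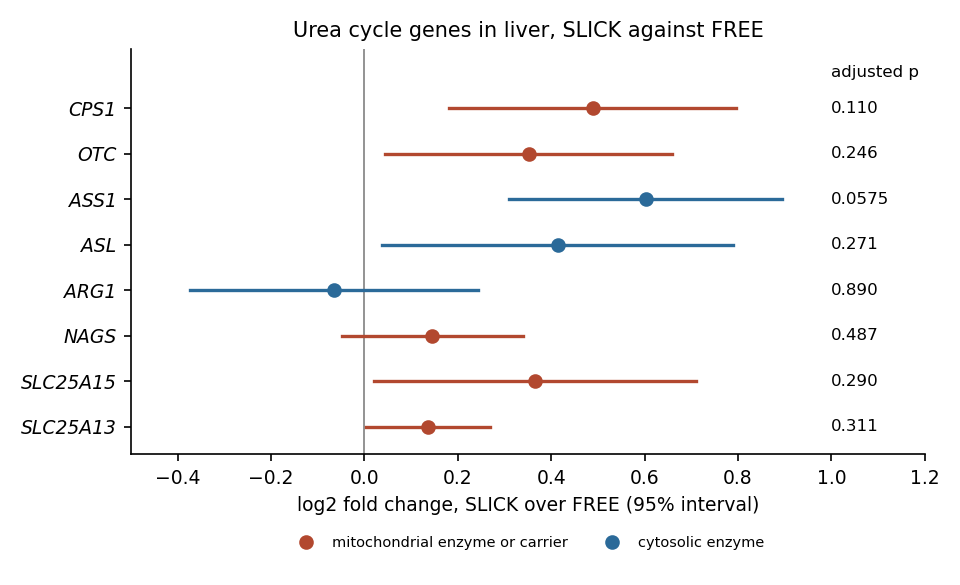
Log2 fold change of each urea cycle gene in SLICK over FREE liver (x axis; points), with 95% intervals derived from the deposited F (lines) and the deposited adjusted p at the right. The intervals of 6 genes, those with an unadjusted p under 0.05, lie above 0. Those of ARG1 and NAGS hold 0, and no adjusted p is under 0.05.

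CPS1, the mitochondrial ligase that commits ammonia to the cycle, is on chromosome 2 (ARS-UCD1.2, as are all positions here) from 98327892 to 98467680 on the + strand (ENSBTAG00000016662). Its gene model merges into 38 exons with a summed length of 5633 bases. In the authors' deposited table its log2 fold change was 0.49 with an SE of 0.147 (unadjusted p = 0.00356, adjusted p = 0.110). That is a ratio of 1.40 between SLICK and FREE, with an interval from 1.13 to 1.74. CPS1 stood at rank 478 of 14161 genes by p, and the call failed over all genes. Its interval lay above a ratio of 1, which restates the unadjusted p.

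NAGS supplies the activator without which CPS1 is nearly inactive. It is a compact gene on chromosome 19, from 43861632 to 43866825 on the + strand (ENSBTAG00000016249, 7 merged exons). The log2 fold change of NAGS was 0.15 with an SE of 0.0921 in the authors' deposited table (unadjusted p = 0.131, adjusted p = 0.487). Its interval ran from -0.05 to 0.34, so the data place NAGS between a slight decrease and a ratio of 1.26 in SLICK over FREE. The intervals of NAGS and CPS1 overlapped, and the difference between them was not tested.

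OTC, which forms citrulline from ornithine and carbamoyl phosphate, is the X-linked member (X, 104841981 to 104918525, - strand, ENSBTAG00000001488, 10 merged exons). In the authors' deposited table its log2 fold change was 0.35 with an SE of 0.147 (unadjusted p = 0.0271, adjusted p = 0.246). The interval, 0.04 to 0.66, came close to 0. All TruSeq animals are described as daughters, so the groups do not differ in sex by their labels.

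ASS1 and ASL carry out the cytosolic steps that take up aspartate and release arginine and fumarate. ASS1, often described as a rate-limiting step of arginine synthesis, lies on chromosome 11 from 100770166 to 100822252 on the + strand (ENSBTAG00000020747, 16 merged exons). Its log2 fold change was 0.60 with an SE of 0.140 by the authors' deposited table, a ratio of 1.52 with an interval from 1.24 to 1.86. The unadjusted p was 3.91e-04, rank 104 of all genes, and the adjusted p was 0.0575, the smallest of the 8 members and just short of the threshold. ASL splits argininosuccinate and lies on chromosome 25 from 27989110 to 27998697 on the - strand (ENSBTAG00000015314, 18 merged exons). The log2 fold change of ASL was 0.41 with an SE of 0.179 in the authors' deposited table (unadjusted p = 0.0327, adjusted p = 0.271). It had the largest SE of the members, so its interval, 0.04 to 0.79, spans both a negligible and a large difference. The gene model of CRCP overlaps ASL on the other strand, and no source used here says whether the TruSeq reads were counted by strand. CRCP averaged 3.56 log2 CPM with a log2 fold change of -0.02, against an average of 8.72 log2 CPM for ASL by the authors' deposited table.

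ARG1, the liver arginase that releases urea and regenerates ornithine, was the only member with a negative log2 fold change. It lies on chromosome 9 from 69522090 to 69539079 on the + strand (ENSBTAG00000012403, 8 merged exons). In the authors' deposited table its log2 fold change was -0.06 with an SE of 0.147 (unadjusted p = 0.664, adjusted p = 0.890). The interval of the ratio ran from 0.772 to 1.18. It overlapped that of CPS1 (1.13 to 1.74) but not that of ASS1 (1.24 to 1.86). Of the 28 pairs of members, 2 had intervals that did not overlap: ASS1 with ARG1, and ASS1 with SLC25A13. These differences between members were not tested, because the members share animals and their covariance needs values per library.

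SLC25A15, the ornithine carrier of the inner mitochondrial membrane, lies on chromosome 12 from 21783841 to 21814435 on the - strand (ENSBTAG00000011647, 7 merged exons). It had a log2 fold change of 0.37 with an SE of 0.165 in the authors' deposited table (unadjusted p = 0.0392, adjusted p = 0.290). SLC25A13, also called citrin and known for the aspartate and glutamate exchange, has the longest gene span of the 8 at 229547 bases (chromosome 4, 13462646 to 13692192, - strand, ENSBTAG00000003773, 20 merged exons). Its log2 fold change was 0.14 with an SE of 0.0634 in the authors' deposited table (unadjusted p = 0.0455, adjusted p = 0.311). SLC25A13 had the smallest SE of the members, and the upper end of its interval, a ratio of 1.205, lay below the lower end for ASS1, 1.24.

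By place, the 5 mitochondrial members had a median log2 fold change of 0.35, from 0.14 to 0.49, and the 3 cytosolic members a median of 0.41, from -0.06 to 0.60. The median over all 8 was 0.36, beside -0.01 over all 14161 genes and 0.04 over the 3793 genes averaging 5 log2 CPM or more. The SEs of the members had a median of 0.147, larger than the 0.0906 of those 3793 genes. Positive values made up 62.8% of the same 3793 genes and 48.2% of all genes, so a positive sign is more common among highly expressed genes in this comparison.

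**Figure D2:**
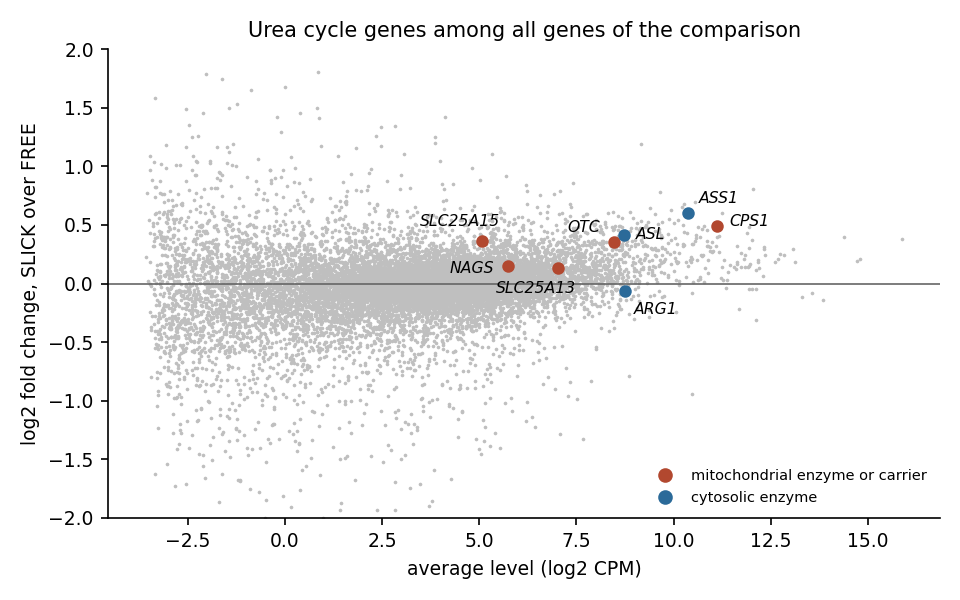
Log2 fold change in SLICK over FREE liver (y axis) against the average level in log2 CPM (x axis) for all genes of the comparison (grey; 46 genes beyond 2 log2 units are not shown) and for the urea cycle genes (coloured). ASS1 and CPS1 stand at the upper right, and ARG1 lies just below 0 at nearly the level of ASL.

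The levels of the members spanned a wide range. Per kilobase of gene length, the authors' average CPM over all libraries of the comparison came to 636 for ASS1, 395 for CPS1, 169 for ASL, 168 for ARG1, 167 for OTC, 39.4 for SLC25A13, 33.1 for NAGS and 22.2 for SLC25A15. Each step from ASL to ARG1 and on to OTC was 1.01-fold or less, while ASS1 exceeded SLC25A15 by 28.6-fold. The enzymes that process the main flow were all above the carriers and above NAGS, which makes an activator. The spread of these levels over animals is not known here, so no neighbouring pair in the order was tested. Before division by length, CPS1 led with an average of 11.1 log2 CPM by the authors' deposited table, rank 56 of all genes, ahead of ASS1 at 10.4 and rank 97. Together the 8 genes took about 0.497% of the counts at these averages.

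**Figure D3:**
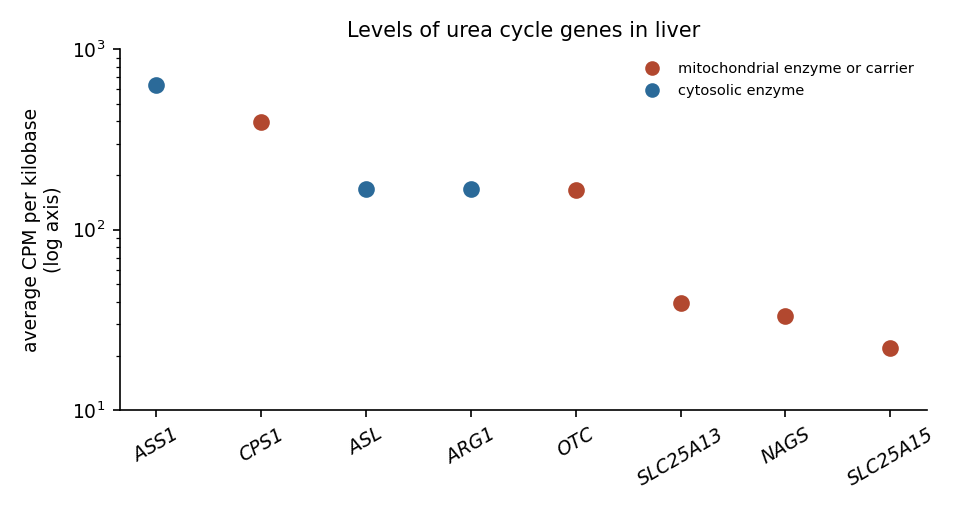
Average CPM per kilobase of gene length (y axis, log scale) for each urea cycle gene over the libraries of the authors' comparison, in falling order. ASS1 and CPS1 lead at 636 and 395, ASL, ARG1 and OTC lie together near 168, and the carriers and NAGS lie between 22.2 and 39.4.

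The members lie on 8 different chromosomes, so none is a neighbour of another. Of the 16 nearest tested genes on either side of them, 0 passed the adjusted p of 0.05 and 3 had an unadjusted p under 0.05, as 16.0% of all genes had. The median log2 fold change of these neighbours was 0.01. The 3 were TSPAN7 beside OTC (log2 fold change 0.20, p = 0.00370), TMEM101, which lies 1422 bases from NAGS (0.15, p = 0.0218), and the unnamed gene ENSBTAG00000054111 beside SLC25A15 (-0.79, p = 0.0104) by the authors' deposited table. The value of TMEM101 was close to the 0.15 of NAGS itself. Around ASS1, HMCN2 had a log2 fold change of 0.32 at an average of -0.81 log2 CPM and FUBP3 of 0.09, with adjusted p of 0.568 and 0.802 by the authors' deposited table. MED23, which lies 1194 bases from ARG1, had a log2 fold change of 0.01 by the authors' deposited table.

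Genes that handle ammonia and glutamine stood on both sides of 0. Of 22 genes listed 20 were measured, as 21 gene models, of which 0 rose and 0 fell, with a median log2 fold change of 0.08 and 14 positive values. The call rate for higher genes over the whole table was 0.0918% and that for lower genes 0.410%. GLUD1, which frees ammonia from glutamate, had a log2 fold change of 0.06 (adjusted p = 0.884) by the authors' deposited table. GLS2, the liver glutaminase, had one of 0.61 with a wide interval from -0.04 to 1.25 (adjusted p = 0.358), and GLUL, which traps ammonia as glutamine around the central vein, one of -0.31 (adjusted p = 0.552) by the authors' deposited table. CA5A, the mitochondrial carbonic anhydrase that supplies bicarbonate to CPS1, was at 0.02 (adjusted p = 0.968) by the authors' deposited table. The smallest unadjusted p of the list were those of AQP9, a channel for water, glycerol and urea (log2 fold change 0.32, p = 0.00893), and the mitochondrial deacetylase SIRT3 (0.24, p = 0.0244), followed by GLS2 (p = 0.0639) and the asparagine synthetase ASNS (-0.44, p = 0.0758) by the authors' deposited table.

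Genes that supply aspartate and clear fumarate had a median log2 fold change of 0.06 over 17 measured genes, with 0 that rose and 0 that fell. GOT2, the mitochondrial transaminase that makes aspartate for SLC25A13 to export, had a log2 fold change of 0.21 (p = 0.0260, adjusted p = 0.242) by the authors' deposited table. Its cytosolic counterpart GOT1 had one of 0.34 (adjusted p = 0.398), and fumarase, FH, one of 0.30 (adjusted p = 0.597) by the authors' deposited table. SLC25A12, the aspartate and glutamate carrier known mainly from brain and muscle, was at 0.03 (adjusted p = 0.922). Divided by the deposited gene lengths, its average level came to 1.25 CPM per kilobase, against 39.4 for SLC25A13. The isocitrate dehydrogenase IDH1 (0.35, p = 0.00413), malic enzyme ME1 (-0.70, p = 0.00969) and the oxoglutarate carrier SLC25A11 (0.21, p = 0.0132) had the smallest unadjusted p of the list by the authors' deposited table.

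Genes that use arginine and ornithine outside the cycle also stood on both sides of 0. Of 32 listed, 30 were measured, with 0 that rose, 0 that fell, 16 positive values and a median log2 fold change of 0.02. By unadjusted p the list was led by the spermine synthase SMS, with a log2 fold change of 0.46 (p = 0.00184, adjusted p = 0.0911). GAMT of creatine synthesis, with 0.47 (p = 0.00220, adjusted p = 0.0945), and the polyamine oxidase PAOX, with 0.45 (p = 0.00252, adjusted p = 0.0984), came next by the authors' deposited table. GATM, also of creatine synthesis, had a log2 fold change of 0.17 (adjusted p = 0.738). Other polyamine genes lay on both sides of 0, among them AMD1 (0.18), SRM (-0.18) and SAT1 (-0.07) by the authors' deposited table. ALDH18A1, which makes the glutamate semialdehyde from which proline and ornithine are built, had a log2 fold change of -0.31 (p = 0.00854, adjusted p = 0.154) by the authors' deposited table. OAT, which removes ornithine, had one of -0.33 (adjusted p = 0.378), and ODC1, which turns ornithine into putrescine, one of -0.31 (adjusted p = 0.358) by the authors' deposited table. ARG2, the mitochondrial arginase, was at -0.21 by the authors' deposited table, with a derived interval from -0.88 to 0.46. Its average level, divided by the deposited gene length, came to 1.28 CPM per kilobase, against 168 for ARG1. The arginine importer SLC7A2 had a log2 fold change of 0.07 (adjusted p = 0.916) by the authors' deposited table. SLC25A2, a further ornithine carrier, was not found by symbol among the genes tested.

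**Figure D4:**
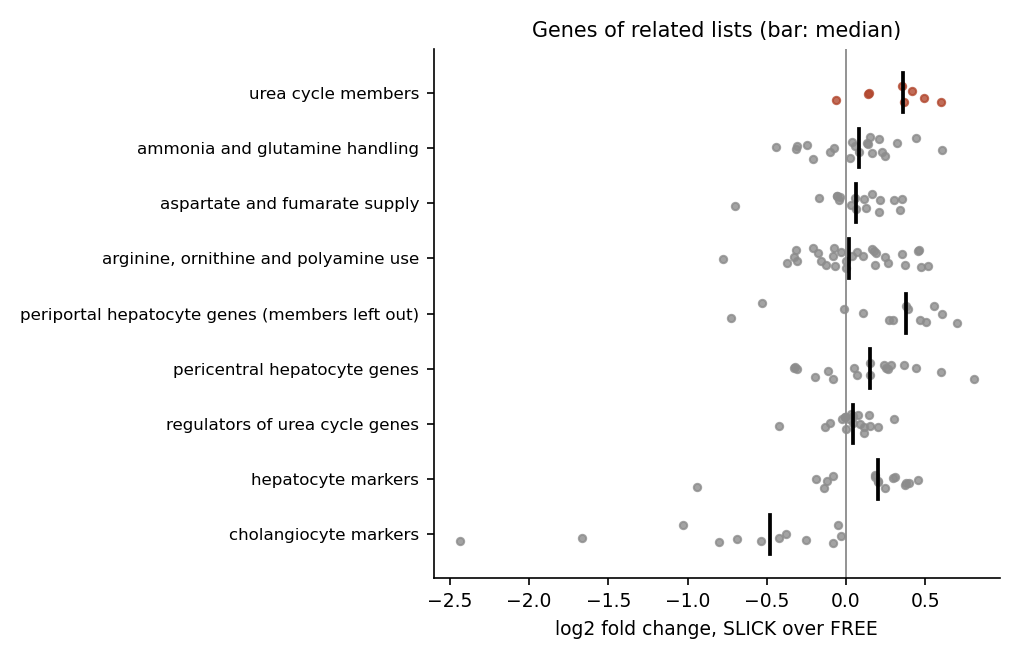
Log2 fold change in SLICK over FREE liver (x axis) of each gene in the urea cycle (top) and in related lists, with black bars at the medians. The medians of the urea cycle (0.36) and of the other periportal genes (0.38) lie furthest to the right. Hepatocyte markers (0.20), pericentral genes (0.15) and the ammonia (0.08), aspartate (0.06), regulator (0.05) and arginine (0.02) lists follow. Cholangiocyte markers lie at the left (-0.48). The lists also differ in median level, 8.59 log2 CPM for the urea cycle and 8.55 for the other periportal genes. It is 12.7 for hepatocyte markers, and 5.01, 6.38 and 4.90 for the ammonia, aspartate and arginine lists. For pericentral genes it is 6.01, for regulators 4.61 and for cholangiocyte markers 2.28. The part of level in these medians was not tested.

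Because the cycle is concentrated around the portal vein, its genes were set beside zonation lists. Of 15 periportal genes that are not members, 13 were measured, 0 rose and 0 fell, with a median log2 fold change of 0.38 and 10 positive values. That median is the value of ALB (0.38). The lists share genes, so they are not separate comparisons. ALB and HPX are also hepatocyte markers, GLS2 is also on the ammonia list, and GLUL is on the ammonia and pericentral lists. The gluconeogenic enzyme FBP1 had a log2 fold change of 0.46 (adjusted p = 0.234) by the authors' deposited table. HAL, which degrades histidine, had a log2 fold change of 0.51, whereas the serine dehydratase SDS had one of -0.73 by the authors' deposited table. The adjusted p were 0.321 for HAL and 0.351 for SDS. Of the 18 pericentral genes measured, 0 rose and 0 fell, with a median of 0.15. Among them CYP2E1 had a log2 fold change of 0.81 (p = 0.00121, adjusted p = 0.0847), CYP1A2 of 0.60 (p = 0.00603) and the nuclear receptor NR1I3 of 0.37 (p = 0.00300) by the authors' deposited table. The amino acid transporter SLC1A4 had a log2 fold change of -0.32 (p = 0.0108) by the authors' deposited table. The difference between the zonation lists was not tested.

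Known regulators of urea cycle genes had log2 fold changes from -0.42 to 0.30. Of 20 listed, 19 were measured, 0 rose and 0 fell, and the median log2 fold change was 0.05. HNF4A, a hepatocyte nuclear receptor, had a log2 fold change of 0.15 (adjusted p = 0.419), the glucagon receptor GCGR of 0.09 (adjusted p = 0.698) and the glucocorticoid receptor NR3C1 of 0.20 (p = 0.0323, adjusted p = 0.269) by the authors' deposited table. CEBPB, which binds promoters of acute phase genes, had a log2 fold change of -0.42 (p = 0.0303, adjusted p = 0.260) by the authors' deposited table. PPARA, which drives fatty acid oxidation genes, had the smallest unadjusted p of the list (0.0158) and a log2 fold change of 0.30, and that of the coactivator CRTC2 was 0.14 (p = 0.0565) by the authors' deposited table. CEBPA, whose loss in mice lowers urea cycle genes, was not found by symbol among the genes tested, some of which carry no symbol.

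Markers of the cell types in liver were set beside the urea cycle genes. Hepatocyte markers, led by ALB at an average of 15.9 log2 CPM, had a median log2 fold change of 0.20 over 16 genes, with 11 positive and 5 negative values. Of the 16, 5 were higher in SLICK at an unadjusted p under 0.05, where 7.22% of all genes and 15.8% of genes averaging 5 log2 CPM or more were higher at that p. All 12 measured cholangiocyte markers, which mark bile duct cells, had a negative log2 fold change, with a median of -0.48 and 7 at an unadjusted p under 0.05, where 8.79% of all genes were lower at that p. Their values ran from -2.44 to -0.03 by the authors' deposited table. KRT19 (-0.03, p = 0.880), ANXA4 (-0.05, p = 0.628) and MMP7 (-0.08, p = 0.824) were close to 0. The median level of these markers was 2.28 log2 CPM. Medians were 0.06 for 14 Kupffer cell and macrophage markers, 0.12 for 10 endothelial markers, -0.04 for 12 stellate cell and fibroblast markers, 0.09 for 12 T and NK cell markers, -0.05 for 8 B and plasma cell markers and -0.29 for 6 neutrophil markers. All 6 neutrophil markers were negative as well, 2 of them at an unadjusted p under 0.05. At that p, 2 stellate, 2 B and plasma cell and 1 Kupffer cell marker were also lower, and 1 endothelial marker was higher. Of 7 erythroid markers 3 were measured, HBA (-1.17), HBB (0.65) and AHSP (0.25). All 3 averaged under 0 log2 CPM by the authors' deposited table, so their median of 0.25 says little. No gene of these 9 lists passed the adjusted p of 0.05, and their part in the values of the urea cycle genes was not tested.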

How the data were processed

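Bovine liver RNA was sequenced from TruSeq (18 samples) or SMARTer (16 samples) libraries, per the labels. Per the submitters' processing notes, the ARS-UCD1.2 build and the tools HISAT2 2.1.0, edgeR, featureCounts and Subread were used, in roles that are not stated. The SMARTer table was counted with featureCounts 1.6.2 and Ensembl release 100 gene models, strand-aware, at a minimum mapping quality of 10, per the file headers. Per gene, the authors deposited the mean level (log2 CPM), the log2 fold change, the F statistic (a score) and the p-value with its adjustment over genes. The sign was read from the table's name. The 70 columns of library values were not used, since 0 match a label, so the planned fits of counts were replaced by the deposited test. The table's 14246 rows hold 85 repeats.

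The deposited F and p imply 18.7 denominator degrees of freedom in all 8645 genes with an F above 0.5. With these, SEs and 95% intervals were derived, which are approximate because the test is not a squared ratio of change to SE. The derivation was tried on simulated counts with an F from a simpler fit that used a fixed common dispersion. That trial therefore does not check the intervals made from the deposited F. Levels per kilobase used the deposited gene lengths, which were the same in both count tables for all 8 members. Named genes of related lists are those past the adjusted p, the 4 with the smallest p and listed partners of members. Some genes taken by this rule are not reported here. HAL, SDS, ALB, HPX, GATM, AMD1, SRM, SAT1, the cholangiocyte and erythroid markers and the neighbouring genes were named after their values were seen. The members and lists were chosen with earlier results of these data known. The software was scipy 1.17.1, pandas 2.3.3 and numpy 2.4.6 in Python 3.11.15.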

Additional observations from a re-analysis of the deposited data

How the results depend on the processing

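The count of urea cycle genes past the threshold, 0 of 8, was also 0 with a Benjamini-Hochberg adjustment over the distinct genes of the table, and with one over genes averaging 0 log2 CPM or more. It was 1 (ASS1) at an adjusted p under 0.10 and 6 at an unadjusted p under 0.05. ASS1 had an adjusted p of 0.0533 and 0.0552 under these 2 other adjustments. Subtracting the median of all genes, -0.01, moves every log2 fold change alike and by less than the size of any member's value, so it could not change a sign. The order of levels moved for 4 members without division by length, where CPS1 passed ASS1 and ARG1 passed ASL. All 6 related lists held 0 genes past the threshold under both adjustments. Scaling, filters, sire as a covariate, daughters of Lone Ranger alone, leaving out each replicate and the DESeq2 test were not run, as they need library groups. No paired analysis was possible because the library columns carry no replicate numbers of the labels. Where an interval holds both 0 and a sizeable ratio, as for ARG1 and NAGS, the failed call does not show equal levels.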
